A study of Mus musculus with 8 samples.

Results

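Ion channels and calcium handling proteins set the rhythm and the force of the heartbeat, and 34 genes of this kind were examined in the outflow tract of the embryonic mouse heart, the vessel-like segment through which blood leaves the ventricles. The 34 genes were chosen by function and name, but with earlier results of these data known. Of them, 31 were among the 24412 genes that could be compared on these arrays. In 6 role groups the 34 genes comprised 6 genes of calcium release from the sarcoplasmic reticulum, 5 of calcium reuptake and extrusion, 7 calcium channel subunits, 3 sodium and pacemaker channel genes, 10 potassium channel genes and 3 gap junction connexins. They were represented by 52 probes, of which 46 passed the filter on dim signal. Hcn4, Kcne1 and Kcnj3 did not pass.

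RNA came from 8 pools, each of 4 outflow tracts microdissected at E10.5. In 4 pools (numbers 1, 2, 3 and 7) the embryos were Raldh2-/-, without the gene now named Aldh1a2, whose product makes retinoic acid from retinaldehyde; this group is called knockout. The other 4 pools (numbers 1, 2, 5 and 7) held wild type littermates. Both groups shared a treatment: the dams ate food with 0.1 mg/g all-trans-retinoic acid between E7.5 and E8.5, so that each group is a rescued one and neither is untreated. The question was which expression differences the outflow tract carries once the added retinoic acid has been withdrawn. The labels do not say how many litters a pool drew on, so every p-value measures the spread between these pools. In bulk RNA of a whole outflow tract, fewer cells of a type and less RNA per cell cannot be told apart.

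Each beat of a heart muscle cell begins with sodium and calcium entry through channels of the plasma membrane. Calcium that enters opens ryanodine receptors of the sarcoplasmic reticulum, the internal calcium store, and the released calcium starts contraction. Relaxation follows when a calcium pump refills the store and an exchanger at the surface moves the remainder out, while potassium channels return the membrane to rest and connexins pass the impulse to the next cell. The outflow tract of the embryo is known as a slowly conducting, slowly relaxing stretch of muscle.

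Signals were divided by the 75th percentile of their array and are given as log2, so 0 is the signal of a spot at that percentile and 1 unit is a doubling. The values of a gene are listed in the order of pools 1, 2, 3 and 7 for the knockout and of pools 1, 2, 5 and 7 for the wild type. A difference is the knockout mean minus the wild type mean on this scale, given with its standard error (SE) from limma. Levels are read within a gene, never between probes.

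The array of wild type pool 1 was unlike the others. On it 94.7% of spots were well above background against 53.3% to 63.2% on the other 7, its median signal was 2023 against 40.0 to 83.0, and its median correlation with the other arrays was 0.682 against 0.967 to 0.985. Its dim spots were raised: of the probes that were dim on all other arrays, 87.5% were called above background there. Differences are therefore given on 8 arrays and on the 7 without this one. Aldh1a2 signal was 2.02, 2.01, 1.87 and 0.059 in the knockout and 1.92, 3.21, 2.98 and 3.65 in the wild type pools. The difference was -1.45 (two-sided exact permutation p = 0.0857 over 70 assignments), and -1.79 without wild type pool 1 (exact p = 0.0286, the smallest that 35 assignments allow). Whether its probe lies in the deleted part of the gene was not looked up. Knockout arrays lay in slide row 1 and wild type arrays in row 2, so slide row and genotype cannot be told apart.

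By the probe that stands for each gene, Kcnd2, Gjc1 and Cacna2d2 were the members whose groups did not overlap on 8 or on 7 arrays, and their probes are shown for that reason. They are 60-base probes placed on mm9, of which the first 30 bases are given 5′ to 3′, with no base in capitals. The exon or UTR under each was not looked up, because no annotation of mm9 was used here. The Kcnd2 probe lies at chr6:21679569-21679628 (plus strand), the Gjc1 probe at chr11:102661010-102661069 (minus strand), and the brighter and dimmer Cacna2d2 probes at chr9:107431245-107431304 and chr9:107431615-107431674 (both plus strand).
Kcnd2: aaatatactgtgttggtggtgaatgacttt
Gjc1: gttgtgtcttccagatccagagaagaactg
Cacna2d2 brighter probe: tgtcagctgtgtcctgtgggggcgtgtgtg
Cacna2d2 dimmer probe: tattttcaaatggtttattacagaagatca
Over their full length the probes held 38.3%, 35.0%, 55.0% and 21.7% G and C in the order shown, so the pair of Cacna2d2 probes differed most in composition.

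None of the 31 measured members passed an adjusted p of 0.05 in limma (Benjamini-Hochberg over all genes), on 8 arrays or on 7. The same holds for all genes: 0% were called in either fit. The smallest adjusted p of a member was 0.735 on 8 arrays and 0.350 on 7 (Gjc1). At an unadjusted p under 0.05, limma called 2 members on 8 arrays, against 1.78% of all genes. Kcnd2 was lower in the knockout (background 1.12%) and Gjc1 higher (background 0.655%). On 7 arrays it called 4, Ryr2, Cacna2d2 and Kcnd2 lower and Gjc1 higher, which is 12.9% of the members and near the 10.6% of all genes (4.34% lower and 6.21% higher). Without overlap between groups there was 1 lower member (Kcnd2) on 8 arrays against a background of 1.55%, and 1 higher member (Gjc1) against 3.94%, or 5.49% in either direction. On 7 arrays 2 members (Kcnd2, Cacna2d2) lay lower without overlap against 4.89% of all genes, and 1 (Gjc1) lay higher against 6.54%, or 11.4% in either direction.

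The sign of the members' differences depended on wild type pool 1. On 8 arrays 13 of 31 members (41.9%) had a negative difference, against 43.1% of all genes, and the median difference was 0.07 against 0.13 over all genes. Without wild type pool 1 the count was 25 of 31 (80.6%) against 40.7% of all genes, and the median was -0.20 against 0.05. In all, 16 members changed sign between these fits.

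**Figure D1:**
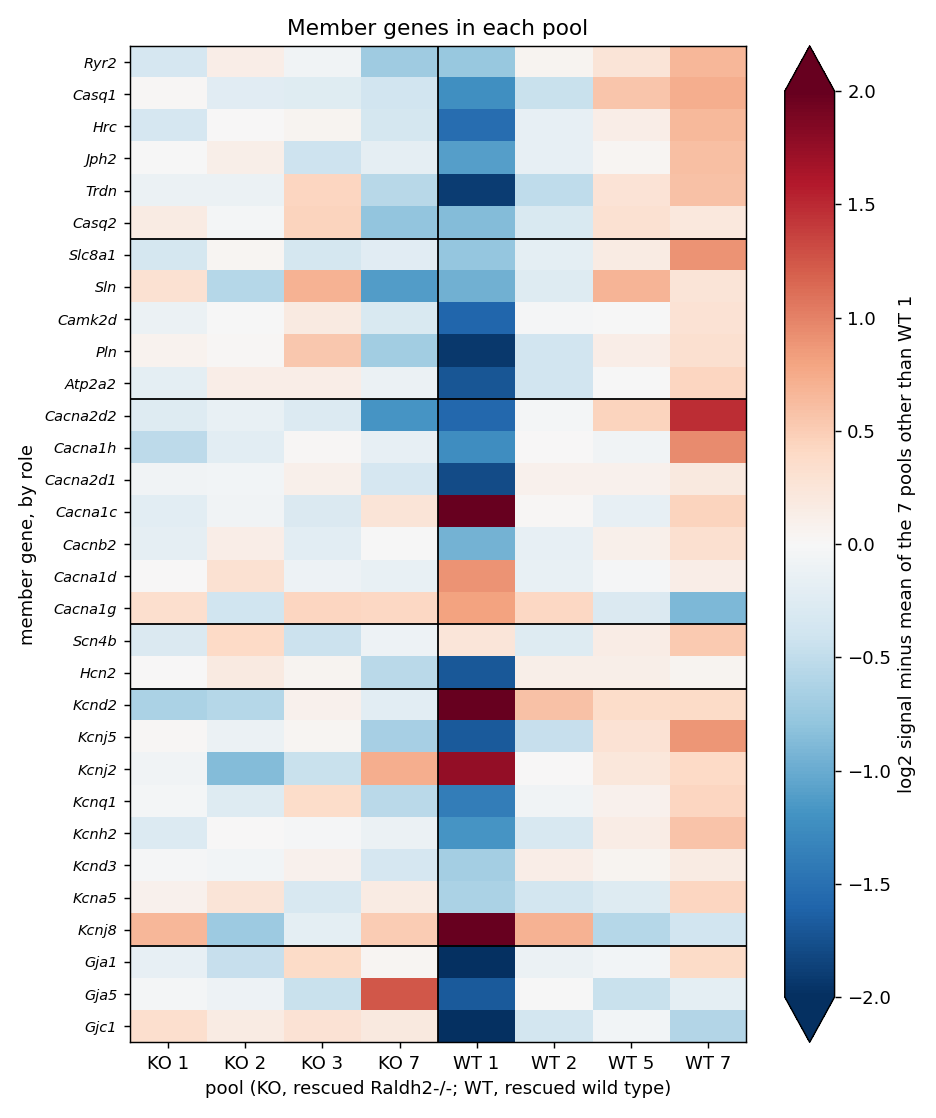
Each row is 1 of the 31 measured members, ordered by role, and each column is a pool (KO, rescued Raldh2-/-; WT, rescued wild type). Colour gives the log2 signal minus the gene's mean over the 7 pools other than WT 1, from blue (lower) to red (higher), cut at -2 and 2; the WT 1 column is blue for most rows and dark red for a few, and WT 7 is the reddest of the others.

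Wild type pool 1 was the lowest of the 8 pools in 23 members and the highest in 6. The 6 were Cacna1c, Cacna1d, Cacna1g, Kcnd2, Kcnj2 and Kcnj8. It was neither highest nor lowest in Scn4b and Sln. Among the other 7 pools, wild type pool 7 was the highest in 20 of 31 members and knockout pool 7 the lowest in 14.

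Genes of calcium release were led by Ryr2, the ryanodine receptor of heart muscle. Ryr2 read 0.62, 1.10, 0.89 and 0.25 in the knockout and 0.21, 1.02, 1.22 and 1.62 in the wild type pools. Knockout pool 2 reached above wild type pool 2, so the groups overlapped even without wild type pool 1. The difference was -0.30 (SE 0.36) on 8 arrays and -0.57 (SE 0.23) on 7, with adjusted p of 0.735 and 0.463 (limma). Triadin (Trdn), which anchors calsequestrin to the ryanodine receptor, read 1.52, 1.52, 2.06 and 1.09 in the knockout pools and -0.26, 1.13, 1.92 and 2.22 in the wild type pools. Its groups overlapped, with differences of 0.30 (SE 0.54) and -0.21 (SE 0.31). Cardiac calsequestrin (Casq2), the calcium buffer of the store, read 1.31, 1.10, 1.59 and 0.36 in the knockout and 0.28, 0.83, 1.44 and 1.35 in the wild type pools. Knockout pool 7 was the low one of its group, and the differences were 0.11 (SE 0.38) and -0.12 (SE 0.30).

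The other calcium release genes were Casq1, the calsequestrin named for skeletal muscle, Hrc, a histidine-rich calcium binding protein of the store, and Jph2, which holds the store close to the plasma membrane. On 8 arrays their differences were -0.11, 0.07 and 0.03. Without wild type pool 1 they were -0.49 (SE 0.28), -0.36 (SE 0.21) and -0.28 (SE 0.21). All 6 genes of the group were then negative, with a median of -0.32, against 2 of 6 and a median of 0.05 on 8 arrays; none passed the adjusted test.

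By the probe that stands for each gene, no gene of calcium reuptake and extrusion separated the groups. Atp2a2, the pump SERCA2 that refills the store, read 4.14, 4.47, 4.46 and 4.22 in the knockout and 2.63, 3.96, 4.32 and 4.76 in the wild type pools. All 4 knockout values were inside the wild type range. Its difference was 0.41 (SE 0.45) on 8 arrays and -0.02 (SE 0.20) on 7, where the 95% interval ran from -0.49 to 0.44. Phospholamban (Pln), which restrains that pump, read 2.94, 2.90, 3.41 and 2.18 in the knockout and 0.94, 2.50, 3.01 and 3.20 in the wild type pools. Here too the groups overlapped, with differences of 0.45 (SE 0.52) and -0.04 (SE 0.30).

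The sodium-calcium exchanger Slc8a1, the main route by which calcium leaves the cell, read 0.44, 0.84, 0.44 and 0.57 in the knockout pools. In wild type pools 1, 2, 5 and 7 it read 0.015, 0.60, 0.96 and 1.68. Knockout pool 2 lay between the wild type pools, and the difference was -0.24 (SE 0.37) on 8 arrays and -0.51 (SE 0.25) on 7. A second Slc8a1 probe gave -0.36 on 8 arrays, and -0.51 on 7, where its groups did not overlap. Sarcolipin (Sln), a second regulator of SERCA pumps that is typical of atrial muscle, varied widely within the groups, from -0.22 to 1.59 in the knockout pools and from -0.06 to 1.58 in the wild type pools, with differences of -0.10 (SE 0.50) and -0.40 (SE 0.45). The kinase gene Camk2d, whose product acts on the ryanodine receptor and phospholamban, had differences of 0.27 (SE 0.42) and -0.15 (SE 0.15). On 7 arrays all 5 genes of the group were negative, with a median of -0.15; on 8 arrays 2 of 5 were, with a median of 0.27.

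Among the calcium channel subunits Cacna2d2 differed most without wild type pool 1. It encodes an auxiliary alpha-2-delta subunit, which helps to bring the pore subunit to the membrane. Its brighter probe read 1.93, 2.02, 1.90 and 1.00 in the knockout and 0.61, 2.13, 2.62 and 3.65 in the wild type pools. Without wild type pool 1 the knockout pools were all lower than the wild type pools, although the gap between knockout pool 2 and wild type pool 2 was small. The difference was -0.54 (SE 0.60) on 8 arrays and -1.09 (SE 0.40) on 7, a 2.13-fold lower level with an adjusted p of 0.435 (limma). Its dimmer probe read -3.41, -3.16, -3.63 and -5.01 in the knockout pools and -4.0, -2.79, -3.07 and -2.08 in the wild type pools. Its signal was not well above background in knockout pool 7 and wild type pool 1, so those values are bounds at best. The differences in measured values were -0.82 on 8 arrays and -1.15 on 7, without overlap on 7. Both probes had their lowest knockout value in pool 7 and their highest wild type value in pool 7. Leaving out wild type pool 7 as well brought the difference of the brighter probe to -0.66, and leaving out knockout pool 7 in its place gave -0.85.

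Cacna1c encodes the pore of the cardiac L-type calcium channel. Its signal was -3.34, -3.19, -3.41 and -2.86 in the knockout pools and -0.16, -3.10, -3.29 and -2.67 in the wild type pools. Wild type pool 1 was far above the other 7, which overlapped. The difference was -0.89 (SE 0.65) on 8 arrays and -0.18 (SE 0.19) on 7. Cacna1d, the L-type pore gene linked to pacemaking, read -1.68, -1.38, -1.79 and -1.83 in the knockout and -0.79, -1.83, -1.72 and -1.56 in the wild type pools. Apart from wild type pool 1 the pools of both groups covered the same range, with differences of -0.20 (SE 0.31) and 0.03 (SE 0.14).

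The T-type pore genes, whose channels open at more negative voltages and are prominent in the embryonic heart, had differences of unlike sign on 7 arrays. Cacna1h was at -0.51 (SE 0.26) and Cacna1g at 0.45 (SE 0.34), and on 8 arrays they were at -0.13 and 0.18. A second Cacna1h probe gave -0.81 on 8 arrays and -0.66 on 7, without overlap on both sets of arrays. The auxiliary subunit genes Cacna2d1 and Cacnb2 were at -0.20 (SE 0.12) and -0.15 (SE 0.15) on 7 arrays, and at 0.27 and 0.10 on 8. Of the 7 genes in the group 4 were negative on 8 arrays and 5 on 7, with medians of -0.13 and -0.18.

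**Figure D2:**
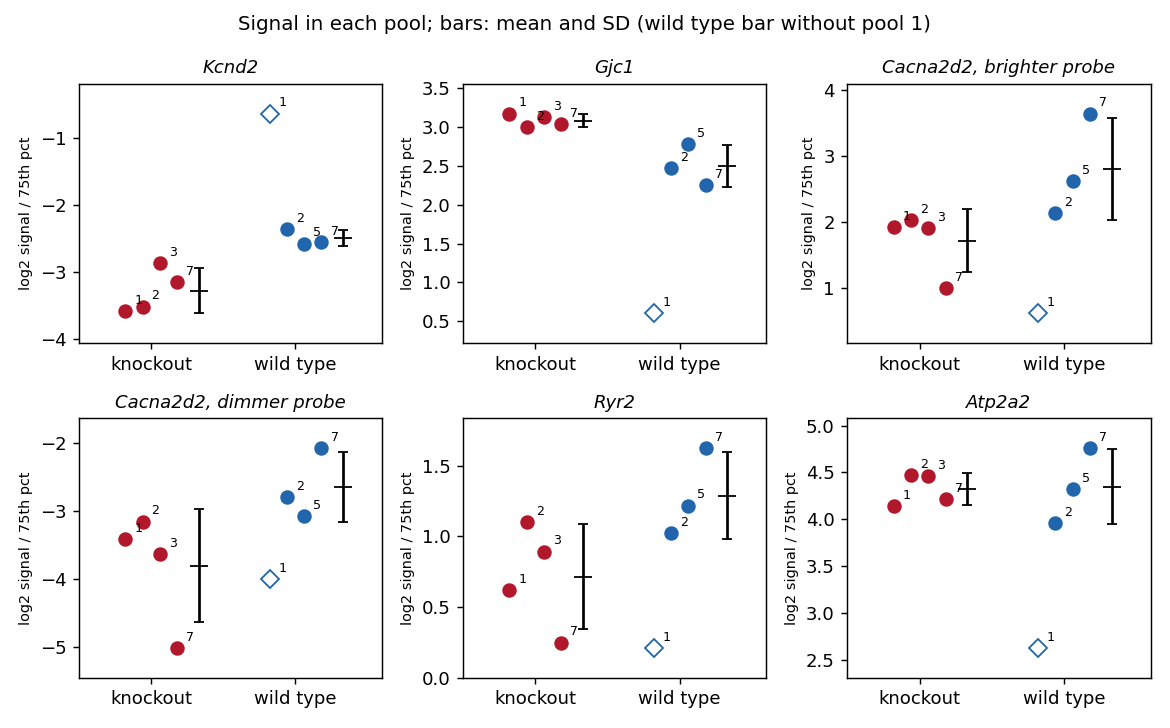
Each panel plots 1 probe, with the log2 of signal over the array's 75th percentile on the vertical axis, 1 point per pool labelled with its pool number, and bars for mean and SD (the wild type bar without pool 1, drawn as an open diamond). Kcnd2, Gjc1 and both Cacna2d2 probes separate the filled points of the groups, whereas those of Ryr2 and Atp2a2 overlap.

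Of the sodium and pacemaker channel genes, Hcn2 and Scn4b were measured. Hcn2, which carries part of the pacemaker current, read 5.00, 5.17, 5.04 and 4.45 in the knockout and 3.30, 5.10, 5.11 and 5.04 in the wild type pools. Wild type pool 1 was low, and the other 7 overlapped; the difference was 0.28 (SE 0.45) on 8 arrays and -0.17 (SE 0.18) on 7. A second Hcn2 probe gave -0.44 on 8 arrays and -0.23 on 7, without overlap on either set of arrays. Scn4b, an auxiliary subunit of the sodium channel, read -2.74, -2.05, -2.88 and -2.56 in the knockout pools and -2.20, -2.71, -2.30 and -1.93 in the wild type pools. Its pools intermingled, with differences of -0.27 (SE 0.30) and -0.24 (SE 0.25). Hcn4, the main pacemaker channel gene of the sinus node, was not well above background on any of the 7 arrays other than that of wild type pool 1.

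Among the potassium channels Kcnd2 had the largest difference. It encodes a pore subunit of the transient outward current, which shapes the early repolarisation of the action potential. Its signal was -3.58, -3.52, -2.87 and -3.15 in the knockout and -0.63, -2.36, -2.58 and -2.56 in the wild type pools. The knockout pools were all lower than the wild type pools, with and without wild type pool 1. Mean signal was -3.28 ± 0.33 (SD, n = 4) in the knockout and -2.50 ± 0.12 (SD, n = 3) in the wild type without pool 1. The difference was -1.25 (SE 0.47) on 8 arrays and -0.78 (SE 0.19) on 7, a 1.72-fold lower level, with adjusted p of 0.735 and 0.350 (limma). Kcnd2 is 1 of the 6 members in which wild type pool 1 read highest; the part of that array's raised dim signal in the larger value on 8 arrays was not tested. Its companion Kcnd3, of the same channel family, had a difference of -0.0007 (SE 0.29) on 8 arrays and of -0.20 (SE 0.12) on 7.

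Inward rectifiers, which hold the resting potential, were represented by Kcnj2, Kcnj5 and Kcnj8. Kcnj2 read -3.57, -4.37, -3.94 and -2.76 in the knockout and -1.73, -3.48, -3.26 and -3.09 in the wild type pools. Knockout pool 7 lay above wild type pools 2, 5 and 7, so the groups overlapped, with differences of -0.77 (SE 0.49) and -0.38 (SE 0.35). Kcnj8, a pore subunit of channels gated by ATP, read -3.84, -5.23, -4.69 and -3.99 in the knockout and -1.19, -3.81, -5.08 and -4.89 in the wild type pools. It was above background in all knockout pools and in 2 of the 3 wild type pools other than pool 1. Its differences were -0.70 (SE 0.82) and 0.15 (SE 0.43), without a common sign. Kcnj5, a subunit of the channel that acetylcholine opens, was at 0.07 on 8 arrays and -0.41 (SE 0.32) on 7. Its partner Kcnj3 was not kept: each of its 2 probes was above background in 1 wild type pool besides pool 1 and in no knockout pool.

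The delayed rectifier genes Kcnh2 and Kcnq1, which end the action potential in the adult heart of many species, were at -0.24 (SE 0.20) and -0.27 (SE 0.23) on 7 arrays, and at 0.09 and 0.12 on 8. Kcna5, of the ultrarapid rectifier, was at 0.25 on 8 arrays and 0.11 on 7. A second Kcna5 probe had the opposite sign, at -0.37 on 8 arrays and -0.09 on 7. Kcne1, the auxiliary partner of Kcnq1, was not well above background on any of the 7 arrays. Of the 8 potassium channel genes measured, 4 were negative on 8 arrays and 6 on 7, with medians of 0.03 and -0.25.

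The connexins had positive differences on 8 arrays, and Gjc1 and Gja5 also on 7. Gjc1, which encodes connexin 45, the connexin of slowly conducting embryonic myocardium, read 3.17, 3.0, 3.13 and 3.03 in the knockout and 0.61, 2.47, 2.78 and 2.25 in the wild type pools. Every knockout pool lay above every wild type pool, and the knockout pools lay close together. Mean signal was 3.08 ± 0.08 (SD, n = 4) in the knockout and 2.50 ± 0.27 (SD, n = 3) in the wild type without pool 1. The difference was 1.06 (SE 0.46) on 8 arrays and 0.59 (SE 0.14) on 7, a 1.5-fold higher level with an adjusted p of 0.350 (limma). Gja5, which encodes connexin 40 of fast conducting tissue and endothelium, read 1.00, 0.94, 0.60 and 2.28 in the knockout and -0.64, 1.04, 0.60 and 0.84 in the wild type pools. Knockout pool 7 alone was high, and without wild type pool 1 and knockout pool 7 the difference of 0.38 fell to 0.02. Gja1, which encodes connexin 43, read -0.83, -1.13, -0.29 and -0.62 in the knockout and -2.84, -0.78, -0.72 and -0.28 in the wild type pools. Its groups overlapped, with differences of 0.44 (SE 0.54) and -0.12 (SE 0.22).

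**Figure D3:**
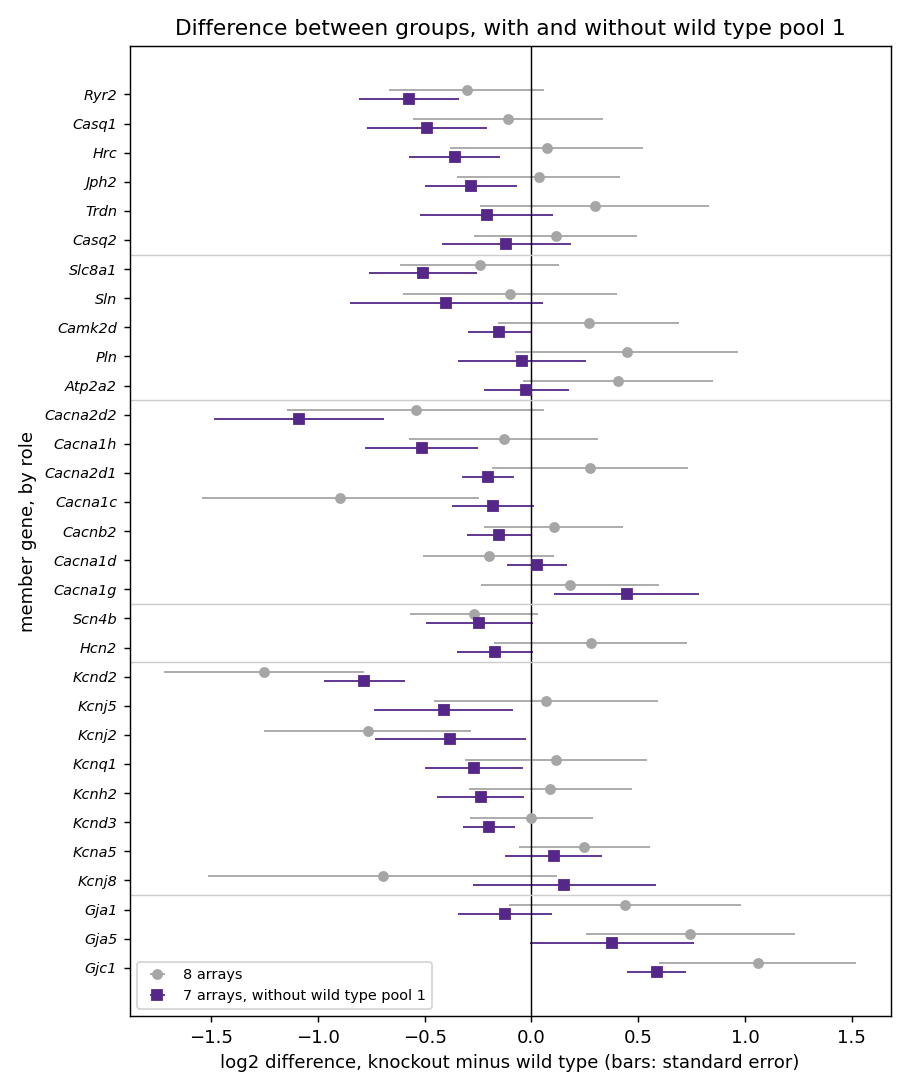
The horizontal axis gives the log2 difference, knockout minus wild type, for each measured member by role, with bars of 1 SE; grey circles are the fit of 8 arrays and purple squares that of the 7 without wild type pool 1. Most squares lie left of zero and left of their circle, Kcnd2 and Cacna2d2 lie farthest left and Gjc1 farthest right of the squares, at -0.78, -1.09 and 0.59.

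Probes of a gene did not always give the same sign. Of 12 members with more than 1 kept probe, 6 had probes of opposite sign on 8 arrays and 4 on 7. The 6 were Trdn, Camk2d, Cacna2d1, Cacnb2, Hcn2 and Kcna5, and the 4 were Camk2d, Cacna1d, Cacnb2 and Kcna5. The further probes of Slc8a1, Cacna1h, Hcn2 and Cacna2d2 described above are those without overlap on 8 or on 7 arrays. All other further probes that were kept overlapped on both. The share of all probes without overlap is not given here. No member's probe was saturated.

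Markers of heart muscle moved with the members. The tissue label was checked against 29 of them, all of which were measured and well above background on the 7 arrays, among them Tnnt2 (cardiac troponin T), Myh6 (a cardiac myosin heavy chain) and Nkx2-5 (a cardiac transcription factor). Tnnt2 differed by 0.43 on 8 arrays and -0.08 on 7, Myh6 by 0.12 and -0.46, and Nkx2-5 by 0.16 and -0.28. Of the 29 markers 6 were negative on 8 arrays and 26 on 7, with medians of 0.25 and -0.18. The median deviation of the markers from each gene's mean was -0.11, 0.01, 0.06 and -0.35 in the knockout pools. For the wild type it was -1.81, -0.22, 0.15 and 0.45. That of the 31 members was -0.07, -0.05, 0.05 and -0.21 in the knockout pools and -1.17, -0.15, 0.11 and 0.41 in the wild type pools. Both lists were highest in wild type pool 7 and lowest in wild type pool 1, and knockout pool 7 was the lowest of the rest. The low value in wild type pool 1 was not particular to them. Endothelial and endocardial (-1.71), smooth muscle (-1.84), crest and cushion (-1.30) and erythroid markers (-2.82) were also lowest there, and all genes were at -0.49. Neuronal markers (0.81) and skeletal and pharyngeal muscle markers (1.00) were highest there, and epithelial markers were at 0.38.

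With the signals of each pool scaled to the heart muscle markers, an alternative chosen after seeing the data, all genes shifted upward on 7 arrays, where 12.0% were then negative with a median of 0.28. Of the members 14 of 31 were negative there, with a median of 0.02. On 8 arrays 22 of 31 were negative under that scaling, against 57.9% of all genes. Kcnd2, Gjc1 and Cacna2d2 were then at -0.56, 0.81 and -0.86 on 7 arrays. Without both wild type pools 1 and 7 the members' median was -0.05, and 21 of 31 were negative. The part of heart muscle content in the members' differences was not tested.

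**Figure D4:**
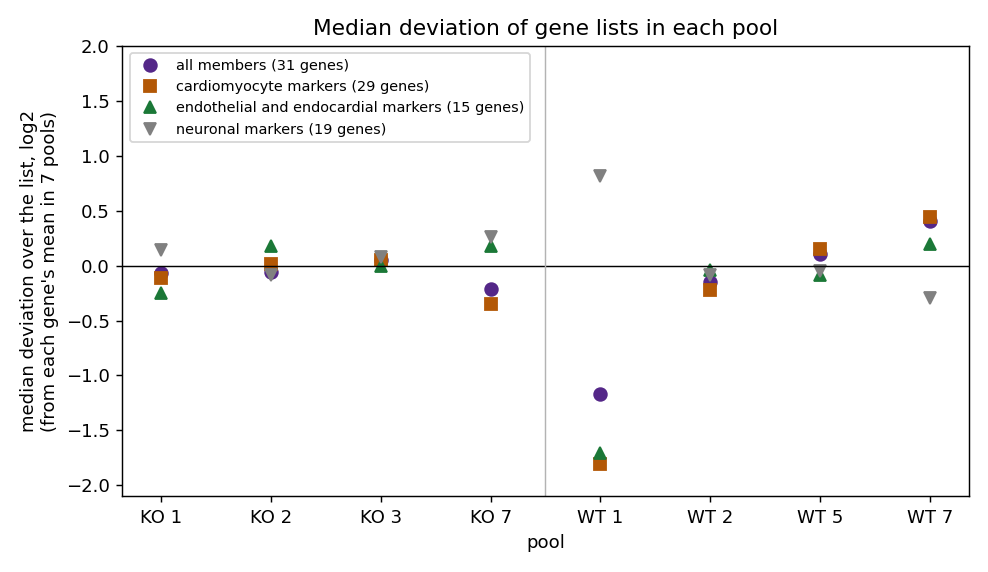
The vertical axis gives, for each pool, the median log2 deviation of a gene list from each gene's mean over the 7 pools other than WT 1; symbols stand for the 31 members, 29 heart muscle markers, 15 endothelial and endocardial markers and 19 neuronal markers. In WT 1 the members, the heart muscle markers and the endothelial and endocardial markers all lie low, at -1.17, -1.81 and -1.71. In WT 7 they lie at 0.41, 0.45 and 0.20. The neuronal markers run the other way, at 0.81 in WT 1 and -0.29 in WT 7.

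Each slide column held 1 array of each group. The members' median difference between the knockout and wild type array of a column was 1.10 in column 1, which holds wild type pool 1, and 0.08, -0.07 and -0.60 in columns 2, 3 and 4. Kcnd2 was lower in the knockout array in 4 of 4 columns (-2.95, -1.16, -0.29 and -0.60) and Gjc1 higher in 4 of 4 (2.57, 0.53, 0.35 and 0.79). With all pools included the groups of Kcnd2 and of Gjc1 did not overlap, so any pairing of arrays would give these signs. For these genes the columns therefore bear only on the size of the difference. Cacna2d2 differed by 1.31, -0.11, -0.72 and -2.65, so its size rested on column 4, the pools numbered 7.

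Other genes of the pathway were taken from a pair of lists chosen by function. Of 50 calcium handling partners 48 were measured, and 0 passed the adjusted test in limma on either set of arrays; at an unadjusted p under 0.05, 2 were called on 8 arrays and 2 on 7, all lower (background of lower genes 1.12% and 4.34%). They were negative in 19 of 48 on 8 arrays and 29 of 48 on 7. The 3 with the smallest p on 8 arrays were S100a1, a calcium sensor that acts on SERCA2 and the ryanodine receptor, Ryr3, a further ryanodine receptor, and Adrb1, the beta-1 adrenergic receptor. S100a1 read -0.13, -0.02, 0.14 and -0.49 in the knockout and 1.86, 0.22, 0.29 and 0.99 in the wild type pools. All knockout pools lay below all wild type pools, by -0.96 (SE 0.40) on 8 arrays and -0.63 (SE 0.23) on 7. Ryr3 differed by -0.88 and -0.65 and Adrb1 by -0.65 and -0.52, with overlap in both.

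Of 58 other channel genes expressed in heart, 49 were measured and 0 passed the adjusted test in limma on 8 or 7 arrays, with 4 lower and 2 higher called at an unadjusted p under 0.05 on 8 arrays (background 1.78% in either direction), and 6 lower and 1 higher on 7 (background 10.6%). They were split evenly, 24 negative and 25 positive on both sets of arrays. Kcne3, an auxiliary subunit of potassium channels, read -1.67, -2.90, -2.28 and -1.06 in the knockout and -0.48, 0.83, -0.76 and 0.14 in the wild type pools. The groups did not overlap, and the difference was -1.91 (SE 0.49) on 8 arrays and -2.05 (SE 0.51) on 7, with adjusted p of 0.735 and 0.350 (limma). Cacna1s, the L-type pore gene of skeletal muscle, read 1.13, 1.33, 1.05 and 1.31 in the knockout and -0.02, 0.38, 0.72 and 0.61 in the wild type pools. It was higher in every knockout pool, by 0.78 (SE 0.27) and 0.64 (SE 0.13), and differed in sign from Kcne3. For Kcne3 and Cacna1s the difference on 7 arrays was close to that on 8.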

How the data were processed

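The deposited scanner files, 1 for each of the 8 arrays (design 028005), were written by Feature Extraction 10.7.3.1 and come with a matrix of the same values. Per the file headers, processed signals are linear intensity values whose background was subtracted and whose spatial trend was removed within the array. The deposited flags for background, saturation and outliers were read as given. The labels state 50 ng of RNA per array, labelled with Cy3, and an integrity number over 8.0.

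The 59305 spots that are not controls were averaged to 55681 probes. Probes flagged well above background on 3 or more arrays of either group were kept (33432 probes), and 34 were lost to outlier flags. Of all probes 26056 were named through their accession and the others by the name in the file. The kept probe with the highest mean stood for its gene (24412 genes, 18655 with a symbol; 23763 genes without wild type pool 1). Groups were compared with limma 3.58.1 in R 4.3.3 (lmFit, eBayes, two-sided, no covariates), with Benjamini-Hochberg adjustment over all genes and a threshold of 0.05. The fit was tested on simulated data. The number of arrays limits the precision.

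Members and lists were chosen with earlier results of these data known. Values in every pool are given for the 3 members of each role group with the smallest p on 8 arrays and for members without overlap. From each list of other pathway genes the 3 with the smallest p are named, and Aldh1a2, Tnnt2, Myh6 and Nkx2-5 always. Of the genes this rule names, 1 is not reported here. Protein sequences are not used here. Alternatives were leaving out each pool, median or quantile scaling, normexp background (offset 50), the matrix, no filter, the mean of a gene's probes, array weights, eBayes with trend and robust, and blocks for pool number or slide column. Leaving out a further pool beside wild type pool 1, and scaling to heart muscle markers, were added after seeing the data.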

Additional observations from a re-analysis of the deposited data

Results flagged for a closer look

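In 7 of 62 groups of 4 pools, 1 pool lay far from the other 3 for a member gene, where chance gives about 1 in 20, or 3.1 groups. The members share the same arrays, so the groups are not independent and the excess over 3.1 was not tested. In 5 of the 7 the pool apart was wild type pool 1: Camk2d at 0.92, Cacna2d1 at -0.84, Hcn2 at 3.30 and Kcnd3 at -2.20 were far below the other wild type pools, and Kcnd2 at -0.63 was far above them. The others were knockout pool 2 for Cacna1g, at -1.95, and knockout pool 7 for Cacna2d2, at 1.00, both below the rest of their group.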

How the results depend on the processing

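No member passed the adjusted threshold under any alternative run, and limma with array weights gave the smallest adjusted p of a member among those listed at the outset (Kcnd2, 0.169). Over all genes 0 passed except with array weights (8 genes, none a member; wild type pool 1 had a weight of 0.017), without wild type pools 1 and 5 (8) and without wild type pool 1 and knockout pool 7 (1). The members' median was -0.20, with 25 of 31 negative, without wild type pool 1, and 0.27 without wild type pool 7. Over all settings that left out 1 or 2 pools it ran from -0.30 to 0.27, with 9 to 27 members negative and 0 to 8 genes called. It was 0.63 with 4 negative under median scaling, which moved the median of all genes from 0.13 to 0.69. The median was -0.25 with 27 negative under quantile normalization of 7 arrays, -0.16 with 23 negative under array weights, and -0.19 with 22 negative under heart muscle scaling of 8 arrays. Aldh1a2 differed by -1.79 without wild type pool 1. Over the 19 settings listed at the outset Kcnd2 and Cacna1c stayed negative and Gjc1 and Gja5 positive. The other 27 members changed sign at least once (93 of 589 values). The groups of Kcnd2 and Gjc1 did not overlap on 8 arrays, so leaving out a pool could not change their sign. Median scaling moves nearly all genes up, and Ryr2 and Cacna2d2 changed sign there alone; without it 25 members changed sign (84 of 558 values), 16 of them on leaving out wild type pool 1. Cacna1c was at 0.05 under heart muscle scaling of 7 arrays. The cause of these shifts was not tested. Pool numbers 1, 2 and 7 occur in both groups, but the labels do not say that equal numbers mark pairs. Deviations of same-numbered pools from their group means correlated at -0.15, 0.32 and -0.41. So few values, 1 of which involves wild type pool 1, cannot decide whether the numbers pair the pools. With pool number as a replicate block no gene passed, 12 members were negative, the median was 0.12, Kcnd2 was at -1.57 and Gjc1 at 1.30.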

Other observations

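Markers of other cell types were also read in these pools. All 12 erythroid markers measured had positive differences, with a median of 1.20 on 8 arrays and 0.75 on 7. Their median deviation varied from -0.57 to 0.90 in the knockout pools and from -1.23 to 0.91 in wild type pools 2, 5 and 7, and none passed the adjusted test in limma. Of 15 endothelial and endocardial markers, a cell type that also expresses Gja5, 3 were negative on 8 arrays and 8 on 7, with medians of 0.38 and -0.04. Of the 9 smooth muscle markers measured, 2 were negative on 8 arrays and 4 on 7, with medians of 0.43 and 0.05. Skeletal and pharyngeal muscle markers, which bear on Casq1 and Cacna1s, had 6 of 9 negative on 8 arrays and 4 of 9 on 7, with medians of -0.11 and 0.17. Neuronal markers, whose cells also express Kcnd2, were negative in 9 of 19 on 8 arrays and 7 of 18 on 7, with medians of 0.17 and 0.32. Of 10 epithelial markers, 4 were negative on 8 arrays and 3 on 7, with medians of 0.04 and 0.58. Their median deviation was 0.36, 0.11, -0.91 and 1.55 in the knockout and 0.38, 1.16, -0.91 and -1.01 in the wild type pools. By this median knockout pool 7 and wild type pool 2 were the high ones. The 3 negative on 7 arrays were the keratins Krt19 (-1.87), Krt8 (-0.69) and Krt18 (-0.27), and each read highest in wild type pool 7. Knockout pool 7 was also the pool with the highest Gja5 and the lowest Cacna2d2 signal of the 7. The part of epithelial content in these values was not tested. Crest and cushion mesenchyme markers were negative in 2 of 13 on 8 arrays and 5 of 12 on 7, with medians of 0.55 and 0.10.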
